A study of Mus musculus with 79 samples.

Results

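The 9 genes described here (Mrc1, Retnla, Nos2, Cd163, Folr2, Lyve1, Gpnmb, Ly6c2 and Timd4) are markers used to describe macrophage polarization and residency. They were chosen by name and make up 9 of the 23361 genes listed in the deposited tables. RNA was sequenced from mice of both sexes carrying eGFP under the S100β promoter, in which the distal tibial nerve received a common peroneal nerve graft inside a silicone conduit. In the delayed group the tibial nerve had been transected and sutured to muscle 8 weeks before the graft. In the immediate group the site had only been opened and closed 8 weeks before, so that both groups had an earlier operation. Macrophages were sorted from the bridge at day 5 (9 delayed and 8 immediate libraries) and day 14 (7 and 8). Cells sorted as Schwann cells came from the same bridges (9 and 7 at day 5, 7 and 8 at day 14), and the distal tibial stump was taken at day 5 only (9 and 7). Each library came from 1 animal, 79 libraries from 32 animals in all, so p-values measure the spread between animals. The ages of the animals are not given in the sources used here.

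Macrophages that enter an injured nerve come mostly from blood monocytes and take on different programs, and the markers described here sort into those programs. Mrc1 (the mannose receptor CD206) and Retnla (a secreted protein induced by interleukin-4) are used as markers of alternative activation. Nos2 makes nitric oxide from arginine and marks classical activation. Cd163 (the haemoglobin scavenger receptor), Folr2 (a folate receptor), Lyve1 (a hyaluronan receptor) and Timd4 (a phosphatidylserine receptor) mark resident macrophages in many tissues. Ly6c2 marks monocytes recently arrived from the blood, and Gpnmb is a lysosomal glycoprotein that rises in macrophages loaded with lipid.

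A macrophage library held between 14928745 and 28499407 counts, a library of cells sorted as Schwann cells between 11614940 and 30796823, and a stump library between 3898778 and 9212709. Levels are given as CPM, the counts of a gene scaled to a common library total, of which 3 counts correspond to 0.105 to 0.201 CPM in a macrophage library and 0.326 to 0.769 CPM in a stump library. The macrophage label fitted its markers, since 7 macrophage genes summed to between 9090 and 14671 CPM in every macrophage library and 7 Schwann cell genes to at most 11.2 CPM. The Schwann cell label did not. In those libraries at day 5, 7 dendritic cell genes led by Ccr7 summed to 6407 to 11131 CPM, whereas 7 Schwann cell genes summed to 4.28 to 816 CPM and S100b itself ranged from 0 to 24.7 CPM. At day 14 the sums were 3025 to 10600.2 CPM and 248 to 2084 CPM. These libraries are therefore called GFP+ libraries here, after the gate and not after a cell type. A pair of them stood apart, with a neutrophil gene sum of 20487 CPM (day 14, immediate, replicate 3) and 5679 CPM (day 14, immediate, replicate 5) against at most 183 CPM in every other GFP+ library.

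On GRCm38 (GENCODE vM21) the 9 protein-coding genes lie apart from one another. The alternative activation genes are Mrc1 at chr2:14229392-14332057 (plus strand) and Retnla at chr16:48842551-48844461 (plus), and Nos2 is at chr11:78920787-78960254 (plus). The residency genes are Cd163 at chr6:124304656-124330527 (plus), Folr2 at chr7:101839988-101857194 (minus), Lyve1 at chr7:110850607-110863239 (minus) and Timd4 at chr11:46810800-46844332 (plus). Ly6c2 is at chr15:75108158-75111970 (minus) and Gpnmb at chr6:49036546-49070929 (plus).

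The promoter sequences of 3 of the genes are shown because the results below turn on them: Retnla between animals, Gpnmb between days and Timd4 between cell fractions. They are the bases ahead of the annotated start, from RefSeq on GRCm38.p6, printed 5′ to 3′ on the gene's strand. For Retnla the first 192 of the 250 bases ahead of the RefSeq start are printed, since the rest overlap the gene as annotated. Retnla lies on chromosome 16 (chr16:48842359-48842550, plus strand), Gpnmb on chromosome 6 (chr6:49036268-49036517, plus strand) and Timd4 on chromosome 11 (chr11:46810549-46810798, plus strand). Capitals mark matches to searched motifs.
Retnla: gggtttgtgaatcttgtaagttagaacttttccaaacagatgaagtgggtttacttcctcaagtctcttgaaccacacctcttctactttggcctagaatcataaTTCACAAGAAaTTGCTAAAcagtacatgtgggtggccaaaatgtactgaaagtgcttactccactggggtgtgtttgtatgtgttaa
Gpnmb: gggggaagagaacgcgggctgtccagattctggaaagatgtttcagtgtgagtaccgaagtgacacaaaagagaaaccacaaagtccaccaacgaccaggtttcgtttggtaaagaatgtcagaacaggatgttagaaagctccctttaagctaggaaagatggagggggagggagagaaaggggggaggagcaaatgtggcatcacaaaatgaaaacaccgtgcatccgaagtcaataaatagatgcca
Timd4: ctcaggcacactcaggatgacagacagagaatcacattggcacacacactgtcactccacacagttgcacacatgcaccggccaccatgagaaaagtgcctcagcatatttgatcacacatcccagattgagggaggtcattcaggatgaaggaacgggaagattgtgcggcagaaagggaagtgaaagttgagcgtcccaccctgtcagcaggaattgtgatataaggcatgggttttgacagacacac
RefSeq promoter entries matched 7 of the 9 genes, with none for Nos2 and Lyve1. Both strands were searched over 250 bases for TTC followed by GAA with 4 free bases between (the letters of a STAT6 site), TTGCNNAA (C/EBP), CACGTG (E-box) and TGANTCA (AP-1), which are held by 5.85%, 9.56%, 6.02% and 6.75% of the 32851 promoters. The Retnla window held 1 match to the STAT6 letters, the first run of capitals, and 1 to the C/EBP letters, the second run, which begin 145 and 134 bases before the RefSeq start. The Gpnmb and Timd4 windows held none of the 4 motifs. A match is a description of the letters and not of a bound site.

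In macrophages of day 5, Gpnmb, Folr2 and Mrc1 had the highest median levels of the 9 genes once levels were divided by exon length. Their median levels were 128, 119 and 73.1 CPM per kilobase (n = 17). The ranges of Gpnmb (30.7 to 285), Folr2 (67.0 to 209) and Mrc1 (42.0 to 174) overlapped, so their order is within the spread. Ly6c2, Nos2 and Cd163 followed at medians of 4.86, 4.12 and 3.85 CPM per kilobase. Retnla had a median of 2.24 but a mean of 410.2 CPM per kilobase, above the mean of 133 for Gpnmb, because a few libraries were very high. Lyve1 and Timd4 were at medians of 0.156 and 0 CPM per kilobase. At day 14 the order of the medians changed, with Gpnmb first at 426 CPM per kilobase (n = 15), then Retnla at 105, Mrc1 at 90.5 and Folr2 at 78.3 CPM per kilobase. By the mean Retnla was first at 518 CPM per kilobase, ahead of Gpnmb at 441.

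Whether the delay changed these markers in macrophages was asked first, within each day. Of the 6 genes tested at day 5, 0 passed an adjusted p of 0.05 in edgeR's quasi-likelihood test, with 0.0357% of all 8409 genes called (0.0119% higher and 0.0238% lower after delay, 435 at an unadjusted p under 0.05, and 17 called by DESeq2). At day 14, 0 of 7 passed, with 0% of 8589 genes called (190 at an unadjusted p under 0.05, and 0 called by DESeq2). Mrc1 in macrophages of day 5 ranged from 267 to 1108 CPM with a median of 465 (n = 9) in the delayed group and from 310 to 654 CPM with a median of 469 (n = 8) in the immediate group. The medians lay close together, and the log2 fold change of 0.11 (SE 0.23) had a 95% interval from -0.35 to 0.56. Gpnmb ranged from 199.7 to 1443 CPM (median 637) after delay and from 217 to 1853 CPM (median 925) after immediate repair, a log2 fold change of -0.49 (SE 0.38, interval -1.23 to 0.25). The fitted log2 differences of the other 4 genes tested at day 5 lay between -0.09 and 0.20.

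**Figure D1:**
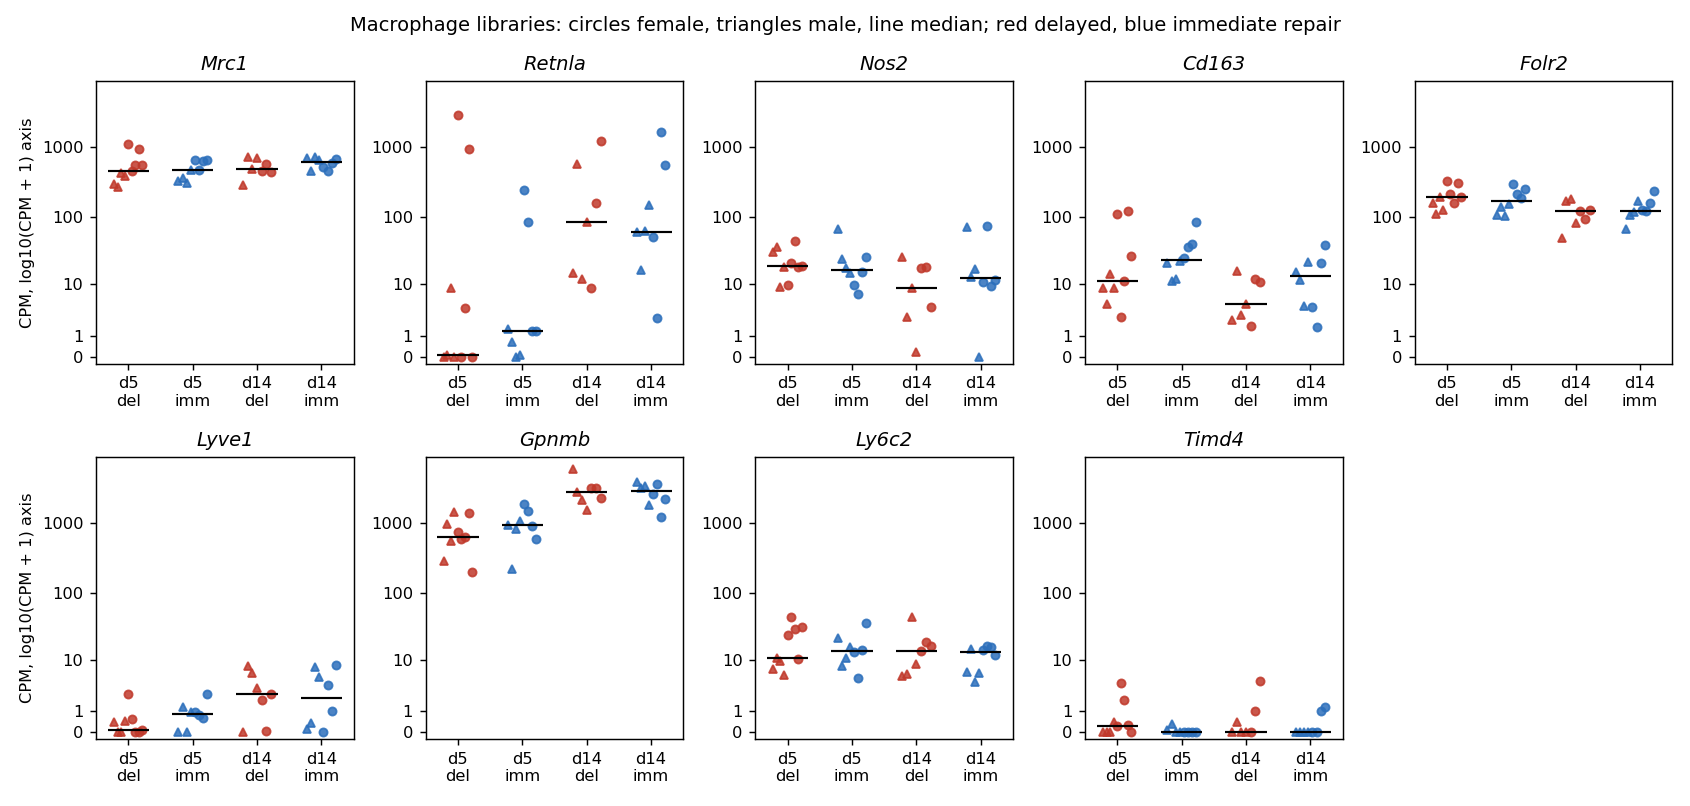
CPM of each of the 9 genes in every macrophage library on a log10(CPM + 1) axis, by day and repair group (del, delayed; imm, immediate), with 1 point per animal and a line at the median. Delayed and immediate points overlap for every gene, Gpnmb is higher at day 14, and Timd4 and Lyve1 stay at the bottom of their panels.

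At day 14, Mrc1 ranged from 286 to 727 CPM (median 484, n = 7) after delay and from 451 to 726 CPM (median 626, n = 8) after immediate repair, with a log2 fold change of -0.18 (SE 0.17, interval -0.51 to 0.16). Gpnmb had a log2 fold change of 0.16 (SE 0.29, interval -0.40 to 0.72). The other 5 genes tested lay between -1.21 and 0.55 on the log2 scale, with standard errors up to 1.14. The test of whether the repair difference itself changed between the days called 0 of 7 genes, with 0.0223% of 8949 genes called (323 at an unadjusted p under 0.05, 9 called by DESeq2). None of the lists of genes around these markers had a called member in macrophages at either day, over 9 to 10 alternative activation genes, 13 to 14 classical activation genes, 8 to 9 genes of arginine metabolism, 11 to 12 resident macrophage genes, 9 to 11 monocyte genes and 17 genes of lipid-associated macrophages tested.

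Day 14 was compared with day 5 across both repair groups, in 32 macrophage libraries. Of 7 genes tested, 3 passed, with 25.5% of 8949 genes called, and they went in opposite directions, 1 higher (12.5% of all genes) and 2 lower (13% of all genes). Gpnmb rose from a median of 832 CPM at day 5 (range 199.7 to 1853, n = 17) to 2775 CPM at day 14 (range 1224 to 6020, n = 15), a log2 fold change of 1.63 (SE 0.26, adjusted p = 2.01e-05) or 3.09-fold higher. Cd163 fell from a median of 21.0 CPM (range 2.76 to 122) to 10.9 CPM (range 1.63 to 39.1), with a log2 fold change of -1.73 (SE 0.48, adjusted p = 0.00817). Folr2 fell from a median of 184 CPM (range 104 to 324) to 121 CPM (range 48.8 to 238), with a log2 fold change of -0.68 (SE 0.17, adjusted p = 0.00412). All 3 calls held in each of the 32 fits that left out 1 library. By sex, the Folr2 median went from 215 to 125 CPM in females and from 131 to 112 CPM in males. The Cd163 median went from 36.8 to 10.9 CPM in females and from 11.5 to 8.07 CPM in males. The sex difference did not pass as changing with day for Folr2 (-0.47, adjusted p = 0.383 in edgeR) or Cd163 (-1.58, adjusted p = 0.265). The change between days was not tested within each sex. Within a repair group Gpnmb passed in both (6.41% of genes called within the delayed and 11.3% within the immediate animals), while Cd163 and Folr2, in fits with fewer libraries, passed in neither. The log2 fold change of Cd163 was -2.25 in the delayed (adjusted p = 0.0800) and -1.22 in the immediate animals (adjusted p = 0.122), and that of Folr2 was -0.80 (adjusted p = 0.0608) and -0.55 (adjusted p = 0.123).

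**Figure D2:**
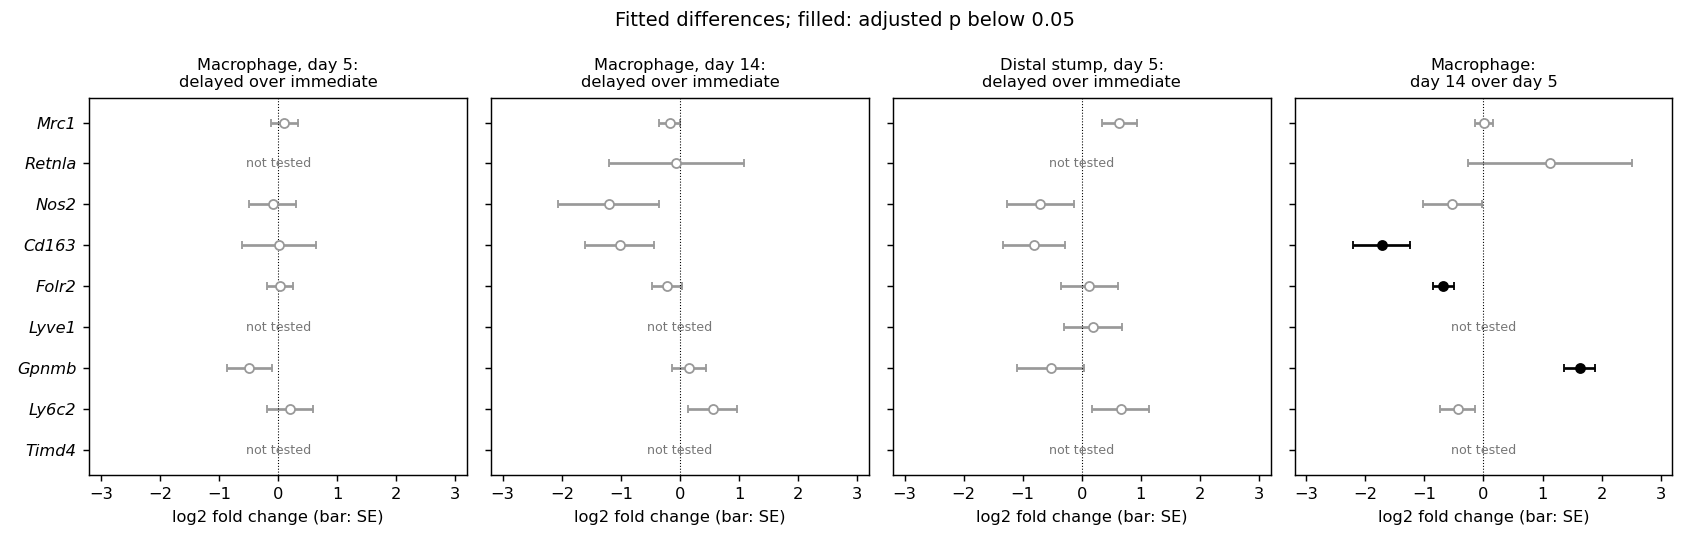
Fitted log2 fold changes (points) of those of the 9 genes that were tested (6, 7, 7 and 7 in the 4 panels) with their SE (bars) for delayed over immediate repair in macrophages of day 5 and day 14 and in the stump, and for day 14 over day 5 in macrophages. Filled points passed an adjusted p of 0.05, which only Cd163, Folr2 and Gpnmb do, in the comparison of days.

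Mrc1 and Nos2, markers of alternative and classical activation, did not pass between the days. Mrc1 had medians of 465.6 CPM (range 267 to 1108) and 576 CPM (range 286 to 727) at day 5 and day 14. Nos2 had medians of 18.2 CPM (range 6.95 to 67.4) and 11.6 CPM (range 0 to 74.2), and the library at 0 belonged to an immediate animal of day 14. The log2 fold change of Mrc1 was 0.01 (SE 0.15, interval -0.29 to 0.31, adjusted p = 0.972 in edgeR). This pooled value joined unlike changes by sex. The Mrc1 median went from 630 to 517 CPM in females and from 346 to 675 CPM in males. The sex difference changed with day (-0.95, adjusted p = 0.0398 in edgeR), in a comparison added after the data were seen.

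The genes around these markers, grouped by lists, were described by their counts for day 14 over day 5 in macrophages, where 12.5% of all genes rose and 13% fell. Of 11 monocyte genes tested, 0 rose and 7 fell, at a median log2 fold change of -0.80 against 0.01 for all 8949 genes. Among them were Vcan, a matrix proteoglycan (-1.55), the interferon-induced Ifitm3 (-0.80) and Hp, haptoglobin (-1.50). Of 17 genes of lipid-associated macrophages, the group to which Gpnmb belongs by function, 7 rose and 2 fell (median 0.35), including the integrin Itgax (2.40), the beta-glucan receptor Clec7a (1.03) and Atp6v0d2, a subunit of the lysosomal proton pump (2.13). Of 9 genes of arginine metabolism, 0 rose and 4 fell (median -0.18), including Gch1, which makes the cofactor of nitric oxide synthase (-0.61), and Sms, spermine synthase (-0.37).

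Classical and alternative activation genes were mixed. Of 15 classical activation genes, 3 rose and 5 fell (median -0.45), with Ptgs2, the inducible cyclooxygenase, at -1.96, Tnf at -1.13 and the interleukin-12 subunit Il12a at 2.93. Of 12 alternative activation genes, 1 rose and 1 fell (median 0.13), each below the share of all genes, namely the transcription factor Irf4 (1.33) and the transglutaminase Tgm2 (-0.44). Of 12 resident macrophage genes, 3 rose and 4 fell (median 0.17), with the chemokine Pf4 at -1.76, the clotting factor subunit F13a1 at -1.15 and the selenoprotein Sepp1 at 0.60. The sorting markers moved too, with Itgam (CD11b) at -0.86, Cd14 at -0.47 and Emr1 (F4/80) at -0.24, all 3 past the threshold, and Fcgr3 at 0.24 (adjusted p = 0.0725). Markers of other cells moved as well. The sum of 5 T cell genes was 5.66 to 67.0 CPM at day 14 against 0.732 to 6.90 CPM at day 5, and the 1 of them tested, Cd4, rose. The sum of 5 fibroblast genes was 12.6 to 699 CPM (median 40.1) against 2.15 to 247 CPM (median 8.26), with 0 of 3 tested called, and that of 4 endothelial genes 15.4 to 34.0 CPM (median 22.3) against 21.4 to 69.3 CPM (median 37.9), with 1 of 2 tested lower. The sum of 7 neutrophil genes was 75.2 to 256 CPM (median 129.7) against 106 to 251 CPM (median 151), with 1 of 4 tested lower (median log2 fold change -0.64). Their part in the results was not tested. In such pools of cells, more cells of a state and more RNA per cell cannot be told apart.

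Retnla varied widely between animals of the same group. In macrophages of day 5 it reached 2891.5 CPM and 936 CPM in delayed replicates 5 and 8, and 248 CPM and 83.7 CPM in immediate replicates 5 and 6. The other 13 libraries held 0 to 8.56 CPM, of which 5 were at 0. All 4 high animals were female, that is 4 of 9 females and 0 of 8 males at or above 50 CPM. At day 14 every library held some, from 2.56 to 1665 CPM with a median of 62.7, and 5 of 7 females and 5 of 8 males were at or above 50 CPM. The difference between days did not pass (log2 fold change 1.13, SE 1.39, adjusted p = 0.598). It passed with sex as a covariate (3.75, adjusted p = 0.0479) and with the replicate number as a block (4.44, adjusted p = 0.0461), and it was -0.56 within the delayed animals. With each library left out in turn it ranged from 0.41 to 2.05 and passed in 0 of 32 fits. Retnla reached 5 CPM in 5 of 17 libraries of day 5 and 14 of 15 of day 14, so that it entered the test through day 14.

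The GFP+ library of the same animal followed in part. At day 5 the 3 animals with at least 50 CPM of Retnla in macrophages and a GFP+ library all had Retnla there as well, at 1409.9, 32.1 and 33.0 CPM. Of the 13 animals below 50 CPM, 1 had Retnla in its GFP+ library (9.06 CPM, delayed replicate 9, with 0 in its macrophages). At day 14 at least 1 count of Retnla was found in 8 of 10 GFP+ libraries from animals at or above 50 CPM, of which immediate replicate 5 held a single count (0.0458 CPM), and in 2 of 5 from the others. In the stump it ranged from 0 to 1.99 CPM and passed no filter. Of 8949 genes, those whose levels went most with Retnla over the 32 macrophage libraries, after the group means were subtracted, were Mgl2 (r = 0.87), a galactose lectin of alternatively activated macrophages, and Ryr1 (r = 0.85). These values are a description over libraries that share groups and depth.

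**Figure D3:**
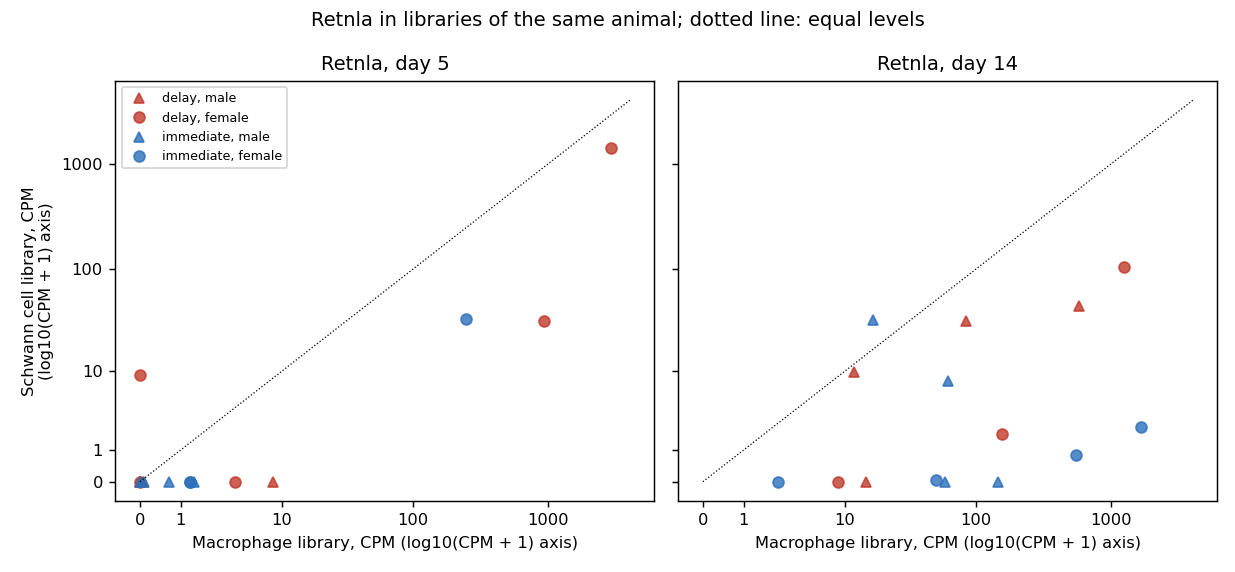
Retnla in the macrophage library (x) and the GFP+ library, labelled Schwann cell (y), of the same animal on log10(CPM + 1) axes, for day 5 and day 14, with circles for females and triangles for males. At day 5 most animals sit at or near the origin and the 3 animals with macrophage values of 248 CPM or more are female, while at day 14 all macrophage values are above 0.

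Among the residency markers, Timd4 and Lyve1 were close to 0 in macrophages. Timd4 ranged from 0 to 4.19 CPM at day 5 and from 0 to 4.38 CPM at day 14, with 10 of 17 and 10 of 15 libraries at 0. Lyve1 ranged from 0 to 2.60 CPM at day 5 and from 0 to 8.33 CPM at day 14, with medians of 0.457 and 2.50 CPM. It did not reach the minimum of 5 CPM in 6 libraries and was not tested. With looser filters the Lyve1 difference between days was 2.197 (filterByExpr, adjusted p = 0.0335) and 2.19 (no filter, adjusted p = 0.0377). Ly6c2 was low as well, at 4.95 to 43.4 CPM (median 13.3) at day 5 and 4.21 to 43.8 CPM (median 13.9) at day 14, and did not pass. Its near copy Ly6c1 shares 8.00% of the 85-base stretches of Ly6c2, and stayed at or below 3.15 CPM in macrophages. Folr2 shares 45.0% of its stretches with the overlapping gene Gm10602, so its counts could have been split.

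Levels in the GFP+ libraries were compared with the macrophages of the same bridges. Of 8 genes tested, 7 differed at day 5, where 65.3% of 10087 genes were called, 2 of them higher in GFP+ libraries (35.6% of all genes) and 5 lower (29.7%). At day 14 all 8 differed, where 64.7% of 10596 genes were called, 2 of them higher (37.1%) and 6 lower (27.6%). These counts include genes that entered the test through 1 fraction only: Timd4, Cd163 and Nos2 at both days and Folr2 at day 14. Such calls follow from the filter, so the counts are not read against the shares. Timd4 was the clearest exception to the macrophage pattern, with 76.4 to 267 CPM (median 184, n = 16) in GFP+ libraries of day 5 and 80.0 to 589.6 CPM (median 168, n = 15) at day 14. Every GFP+ library was above every macrophage library. Timd4 reached 5 CPM in 0 of 17 and 0 of 15 macrophage libraries and entered the test only through the GFP+ libraries, so its calls follow from the filter and no fold is given. Ly6c2 was also higher, at 0.231 to 169 CPM (median 31.4) at day 5 and 13.9 to 301 CPM (median 59.2) at day 14. Its log2 fold change, GFP+ over macrophage, was 1.27 (SE 0.43, adjusted p = 0.0101) at day 5, which was lost with the animal as a block (0.90, adjusted p = 0.0933), and 2.16 (SE 0.37, adjusted p = 7.86e-06) at day 14. In GFP+ libraries its near copy Ly6c1 ranged from 0 to 55.3 CPM (median 0.581) at day 5. At day 14 Ly6c1 ranged from 0 to 48.5 CPM (median 3.39). The part of Ly6c1 in the Ly6c2 values was not tested.

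The other genes were lower in GFP+ libraries. At day 5 the log2 fold changes were -3.92 for Mrc1, -3.42 for Folr2, -3.53 for Cd163, -3.00 for Gpnmb and -3.00 for Nos2, with adjusted p at or below 0.00932. Retnla did not pass at day 5 (-2.54, adjusted p = 0.159), but did with the animal as a block (-3.93, adjusted p = 0.00408) and without delayed replicate 5 of the GFP+ libraries (-5.12, adjusted p = 0.0103). At day 14 they were -5.63 for Mrc1, -5.85 for Folr2, -4.39 for Cd163, -4.35 for Gpnmb, -5.67 for Nos2 and -5.04 for Retnla. Cd163 and Nos2 at both days and Folr2 at day 14 reached 5 CPM in fewer than 6 GFP+ libraries and entered the test only through the macrophages, so their calls follow from the filter. Nos2 and Retnla at day 14 did not pass in limma-voom with sample weights (adjusted p = 0.198 and 0.220). Leaving out either library with neutrophil genes lost no call at day 14.

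The level of each gene in the GFP+ library was also set against the macrophage level of the same animal. At day 5 the GFP+ library held a median of 7.10% of the macrophage level of Mrc1, 10.2% of Folr2 and 4.03% of Gpnmb (16 animals). The same measure was 8.55% for Emr1, 7.08% for Cd14, 8.24% for Itgam and 11.6% for Fcgr3. At day 14 (15 animals) it was 1.90% for Mrc1, 1.86% for Folr2 and 6.205% for Gpnmb, beside 5.19% for Emr1, 5.05% for Cd14, 13.9% for Itgam and 5.64% for Fcgr3. For Timd4 and Ly6c2 the GFP+ library was higher in 16 and 13 of 16 animals at day 5 and in all 15 at day 14. Mrc1 and Folr2 at day 14 thus lay below all 4 sorting markers. Cd163 was at a median of 0.0856% at day 5 and 0% at day 14, Nos2 at 0% at both days, and Retnla at 0% and 0.145%. The part of macrophage RNA in the GFP+ values was not tested.

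**Figure D4:**
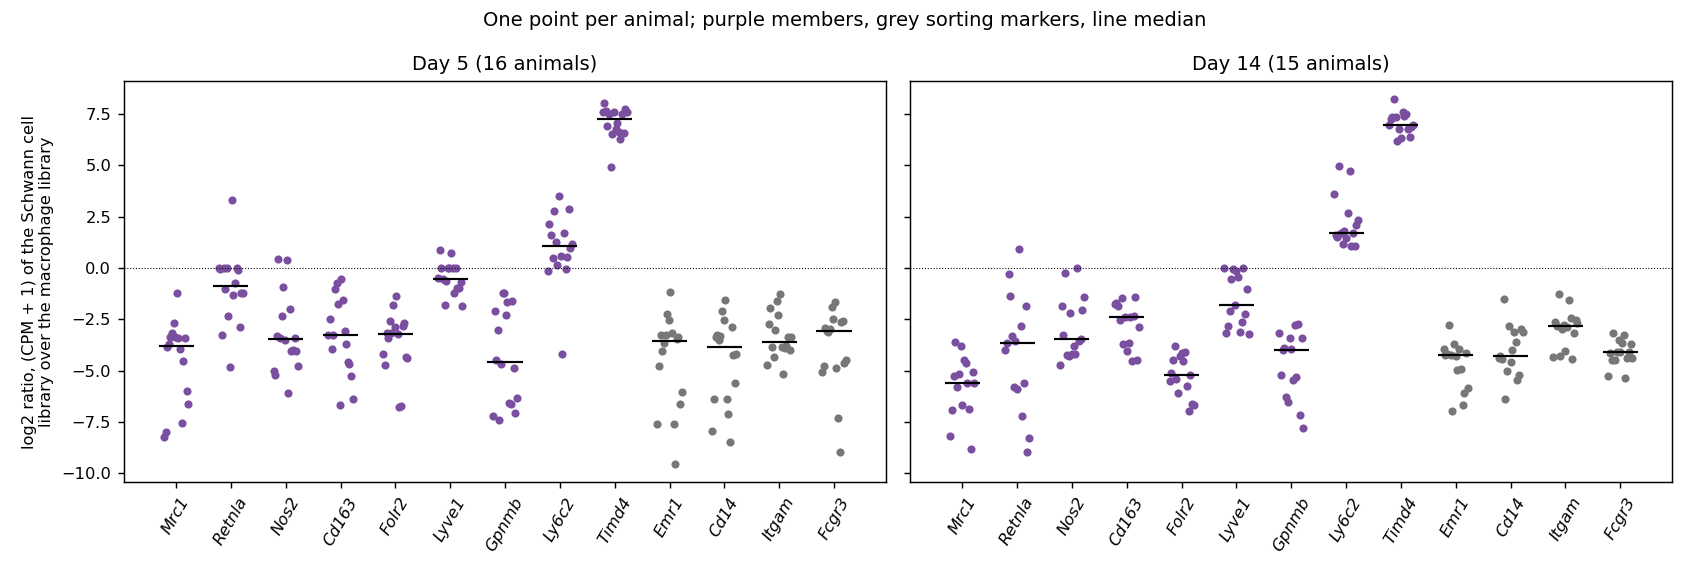
Log2 ratio of (CPM + 1) in the GFP+ library, labelled Schwann cell, over the macrophage library of the same animal, with 1 point per animal and a line at the median, for the 9 genes (purple) and 4 macrophage sorting markers (grey). Timd4 lies above 0 in every animal, Ly6c2 in most, and Mrc1, Folr2, Gpnmb and the sorting markers lie below 0 in every animal.

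Within the GFP+ libraries the repair groups did not differ in any of 5 genes tested at day 5 or 5 at day 14, with 0% of 9604 and 0% of 10226 genes called (505 and 373 at an unadjusted p under 0.05, and 14 and 3 called by DESeq2). Timd4 had the smallest unadjusted p, with 109.5 to 267 CPM (median 201) after delay and 76.4 to 215 CPM (median 145) after immediate repair at day 5. The ranges overlapped, and the log2 fold change was 0.47 (SE 0.21, adjusted p = 0.913). Between days 1 of 6 genes passed, with 19.1% of 10923 genes called, and it was lower at day 14 (11.8% of all genes lower and 7.28% higher). Folr2 fell from a median of 15.9 CPM (range 0 to 75.4) to 2.26 CPM (range 0 to 6.99), a log2 fold change of -3.00 (SE 0.68, adjusted p = 0.00225). It reached 5 CPM in 13 of 16 libraries of day 5 and 3 of 15 of day 14, so it entered the test only through day 5 and its call follows from that. Markers of cell types moved between the days too. The sum of 5 fibroblast genes was 2.22 to 3299 CPM (median 730.2) at day 5 and 667 to 10174 CPM (median 3976) at day 14, with 2 of 5 higher. Of 7 Schwann cell genes 3 rose, and of 7 dendritic cell genes 1 rose and 3 fell. Their part in the result was not tested. With the delayed animals alone 8.09% of genes were called and with the immediate animals alone 3.81%, and in the latter Folr2 did not pass (-2.66, adjusted p = 0.198). Retnla was -1.28 in the main fit and did not pass, but was 6.06 with the replicate number as a block (adjusted p = 0.0303 in edgeR).

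In the distal stump, which was sequenced from rRNA-depleted RNA and is set beside the sorted cells without a test, Mrc1 led. Its median was 95.3 CPM per kilobase (n = 16), ahead of Gpnmb at 24.1 and Folr2 at 20.3 CPM per kilobase. Folr2 and Gpnmb were higher in the macrophage library than in the stump in all 16 animals, Mrc1 in 7 of 16 and Lyve1 in 0 of 16. Lyve1 reached 1.54 to 19.5 CPM in the stump, where 3 lymphatic endothelial genes summed to 15.3 to 97.8 CPM, against at most 0.877 CPM in macrophages. Lymphatic vessels also carry Lyve1, and their part was not tested.

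Of the 7 genes tested in the stump, 0 differed between delayed and immediate repair, with 26.3% of 12229 genes called (3221 genes, 12.8% of all genes higher and 13.5% lower after delay). By DESeq2, 3670 genes were called. Mrc1 ranged from 455 to 1104 CPM (median 691, n = 9) after delay and from 232 to 987 CPM (median 362, n = 7) after immediate repair. Of the delayed stumps, 8 of 9 were above the immediate mean, and the log2 fold change was 0.64 (SE 0.30, unadjusted p = 0.0482, adjusted p = 0.126 in edgeR). Immediate replicate 4 held the 987 CPM, and without it the difference was 0.91 (adjusted p = 0.0209). This call thus turned on 1 library. The other 6 genes tested lay between -0.80 and 0.66 on the log2 scale.

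Marker genes of several cell types differed between the repair groups in the stump. The 7 macrophage genes summed to 1532 to 2334 CPM after delay and 731 to 1987 CPM after immediate repair, and Emr1 was higher after delay (0.84, SE 0.28, adjusted p = 0.0334). The 7 Schwann cell genes summed to 93.7 to 810.2 CPM and 1316 to 3158 CPM, with no overlap, and 7 of 7 fell. The 4 endothelial genes summed to 773 to 1191 CPM and 520 to 713 CPM, and 4 of 4 rose. In whole tissue, fewer cells of a type and less RNA per cell cannot be told apart. Of 17 genes of lipid-associated macrophages, 0 rose and 5 fell after delay, where 13.5% of all genes fell (median -0.11 against 0.02 for all genes), including Lgals3, galectin-3 (-1.87), the cholesterol transporter Abca1 (-1.10) and Atp6v0d2 (-1.16). Of 15 classical activation genes, 2 rose and 0 fell (median 0.60), namely the costimulatory Cd86 (0.93) and the transcription factor Irf5 (0.51), and of 8 alternative activation genes, 1 rose and 0 fell (median 0.19). Both counts are near the 12.8% of all genes that were higher after delay. Of 12 resident macrophage genes 1 rose and 1 fell (median 0.29), and of 9 genes of arginine metabolism 1 rose and 1 fell (median 0.0074). Of 10 monocyte genes, 2 rose and 0 fell (median 0.49), namely the integrin Itgal (1.22) and the sialoglycoprotein Spn (0.92). Some genes of other leukocytes, which also carry Itgal, Spn and Cd86, were higher too. Of 4 neutrophil genes and 1 B cell gene tested, 0 were called. Of 6 dendritic cell genes tested 3 rose, with sums of 53.7 to 95.0 CPM after delay and 44.3 to 73.3 CPM after immediate repair, and the 1 T cell gene tested rose, with sums of 12.8 to 68.3 CPM and 4.82 to 29.2 CPM. Their part in the result was not tested.

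Female and male macrophages were compared because both sexes entered each group. Replicates 1 to 4 are male and 5 to 9 female, so sex and anything handled by replicate number cannot be told apart. Over both days, 0 of 7 genes passed in edgeR's quasi-likelihood test, with 2.26% of 8949 genes called (0.916% higher and 1.34% lower in females, 2058 at an unadjusted p under 0.05, and 663 called by DESeq2). Retnla lay nearest to the threshold (log2 fold change 4.96, SE 1.43, adjusted p = 0.0530), and it passed in 8 of 32 fits that left out 1 library. It also passed in DESeq2 (5.30, adjusted p = 0.000853) and with library size scaling (5.05, adjusted p = 0.0365), as Folr2 did with library size scaling (0.54, adjusted p = 0.0476) and Ly6c2 in limma-voom (0.91, adjusted p = 0.0200). The Retnla difference ranged from 4.43 to 5.38 with 1 library left out. No fit without the high animals as a set was run. At or above 50 CPM were 4 of 9 females and 0 of 8 males at day 5, and 5 of 7 and 5 of 8 at day 14.

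With day 5 alone, a comparison added after the data were seen, 3 of 6 genes passed with 25.1% of 8409 genes called, all 3 higher in females: Mrc1 (0.75, adjusted p = 0.00270), Folr2 (0.65, adjusted p = 0.00546) and Cd163 (1.88, adjusted p = 0.0134). The share of all genes in each direction is not given here, so this shared direction is not set against it. Mrc1 ranged from 465 to 1108 CPM (median 630.2, n = 9) in females and from 267 to 472 CPM (median 346, n = 8) in males. At day 14 alone 0 of 7 passed (0.0466% of 8589 genes called), and Mrc1 ranged from 441 to 672 CPM (median 517, n = 7) in females and from 286 to 727 CPM (median 675, n = 8) in males. The difference between the sexes itself changed with day for 1 of 7 genes, with 1.52% of 8949 genes called (0.726% with a higher and 0.793% with a lower difference at day 14), which was Mrc1 (log2 difference -0.95, SE 0.24, adjusted p = 0.0398). Sums of markers of other cells at day 5 are given without a test. Those of 4 B cell genes were 4.43 to 8.98 CPM in female and 0.891 to 3.61 CPM in male macrophage libraries. The medians were 48.9 (range 15.4 to 91.8) and 28.4 CPM (13.9 to 56.7) for 7 dendritic cell genes. They were 64.9 (21.5 to 69.3) and 32.8 CPM (21.4 to 59.7) for 4 endothelial genes. For 5 fibroblast genes they were 15.6 (2.56 to 247) and 3.72 CPM (2.15 to 144). The ranges overlapped for all but the B cell genes. Over both days 0 genes of these lists passed by sex. The sorting marker Fcgr3 ranged from 669 to 862 CPM in females and from 436 to 580.1 CPM in males at day 5, with no overlap, and its sex difference also changed with day (-0.77, SE 0.15, adjusted p = 0.0190 in edgeR). Their part in the result was not tested. Sex differences passed in 0 of 5 genes in the GFP+ libraries of day 5 (7.02% of 9604 genes called, 1.66% higher and 5.36% lower in females, 2025 at an unadjusted p under 0.05) and in 0 of 7 genes in the stump (0.0654% of 12229, 0.0327% in each direction, 1780 at an unadjusted p under 0.05).

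**Figure D5:**
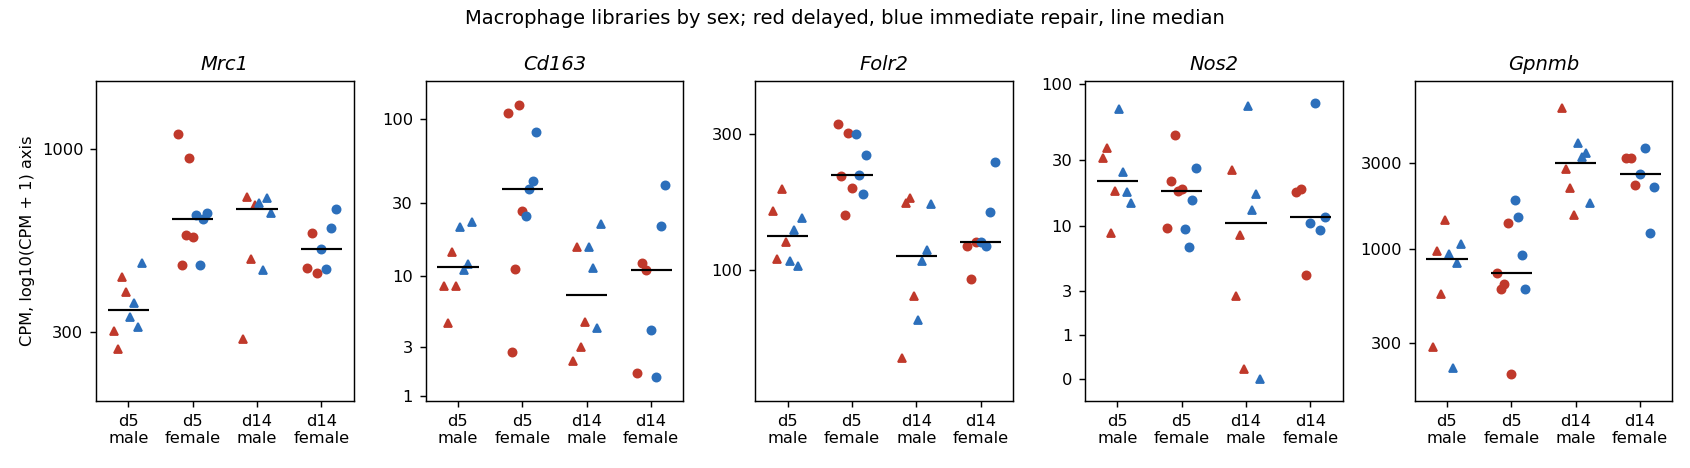
CPM of 5 of the genes in every macrophage library by day and sex, on log10(CPM + 1) axes, with red for delayed and blue for immediate repair and a line at the median. At day 5 the female medians of Mrc1, Cd163 and Folr2 lie above the male ones, and at day 14 the female median of Mrc1 lies below it.

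Over the 32 macrophage libraries, 6 of the genes gave 15 pairs, compared by correlating log2(CPM + 1) after the means of the 4 groups were subtracted, with permutation p-values (100000 resamples, two-sided). In 5 pairs Pearson's r passed an adjusted p of 0.05. Mrc1 went with Cd163 (r = 0.69, raw p = 9e-05, adjusted p = 0.00135; rho = 0.64, raw p = 0.00021, adjusted p = 0.00315) and with Folr2 (r = 0.59, raw p = 0.00066, adjusted p = 0.00495; rho = 0.53, raw p = 0.00297, adjusted p = 0.0148). Without the 2 animals farthest from the median of Mrc1, r was 0.59 and 0.49. Nos2 went against Folr2 (r = -0.49, raw p = 0.00848, adjusted p = 0.0254; rho = -0.60, raw p = 0.00081, adjusted p = 0.00607), with r = -0.66 without the 2 animals farthest from the median of Nos2. Mrc1 with Nos2 (r = -0.42, adjusted p = 0.0249; rho = -0.48, adjusted p = 0.0175) and Cd163 with Folr2 (r = 0.49, adjusted p = 0.0228; rho = 0.52, adjusted p = 0.0153) also passed by permutation over the 32 libraries, but not without the 2 animals farthest from the median of the first gene (r = -0.39, adjusted p = 0.0942, and r = 0.39, adjusted p = 0.109). Nos2 with Cd163 passed by rho (-0.51, adjusted p = 0.0155) but not by r (-0.39, adjusted p = 0.0597). Within day 5 (n = 17) the values of the first 3 pairs were 0.83 for Mrc1 with Cd163, 0.83 for Mrc1 with Folr2 and -0.71 for Nos2 with Folr2. Within day 14 (n = 15) they were 0.43, 0.30 and -0.42, and 1 of 15 pairs passed, Nos2 with Gpnmb (r = 0.73, adjusted p = 0.0456), which had r = -0.25 within day 5. With the means of the sexes subtracted as well, 1 pair passed, Mrc1 with Cd163 (r = 0.63, adjusted p = 0.0313). The r of the other 4 pairs stayed near their values above, at 0.53 for Mrc1 with Folr2, -0.53 for Nos2 with Folr2, -0.40 for Mrc1 with Nos2 and 0.42 for Cd163 with Folr2. The genes whose levels went most with the others are given as a description. They were Gpt2 and the lectin Clec10a for Mrc1 (r = 0.82 for both) and Pdcd1lg2 and Clec10a for Cd163 (r = 0.78 for both). For Folr2 they were the carbonyl reductase Cbr2 (r = 0.87) and Ifi27l2a (r = 0.83). For Nos2 they were Cog8 (r = 0.79) and B430306N03Rik (r = 0.78), and for Gpnmb Pold3 (r = 0.75) and Mrpl35 (r = 0.71). Those of Ly6c2 were Ms4a4c (r = 0.75) and Pyhin1 (r = 0.74).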

How the data were processed

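The authors trimmed 85-base single-end reads with cutadapt 1.8, removed rRNA reads of the stump with bowtie2, aligned with TopHat2 2.1.1 to mm10 with UCSC genes and ran Cufflinks 2.2.1, per the methods and the submitters' processing notes. The deposited values are estimated counts per gene, and the tool that wrote them is not given in the sources used here. Between 0.951% and 1.18% of values were not whole and were rounded. Sorted cells (1000 per library) gave amplified cDNA (4 ng for macrophages, 1.5 ng for Schwann cells) and stumps gave 100 ng of rRNA-depleted RNA, so no level was tested between stumps and sorted cells. Every column belonged to a sample.

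A gene was tested if 6 or more of the compared libraries reached 5 CPM. Tests were run with edgeR 4.0.16 (quasi-likelihood, TMM) in R 4.3.3, with Benjamini-Hochberg adjustment over all genes tested. SE is the log2 fold change over the square root of F. Fits of day and of cell fraction had repair as a term. Macrophage and GFP+ libraries of 31 animals came from the same bridge and pair by animal, and a fit with the animal as a block was run beside the main one. Alternatives were DESeq2 1.42.0, library size scaling, filterByExpr, no filter, limma 3.58.1 voom with sample weights, sex as a covariate, a replicate block and each library left out. The tests were tested on simulated data. No 2 libraries of a group agreed within sampling noise. Intervals are those of log2 fold changes and reach 1.96 SE to each side, with the SE of the quasi-likelihood fit. Positions and exon lengths are from GENCODE vM21 on GRCm38.

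The genes named are the 9 members (another marker of the set is not reported here), the sorting markers, Ly6c1, up to 3 genes with the smallest p per list and the 2 genes most correlated with each member. Genes and lists were chosen with earlier results of these data known, and the comparisons of days within 1 repair group and of sexes within 1 day were added after the data were seen.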

Additional observations from a re-analysis of the deposited data

Results flagged for a closer look

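In 88 groups of 7 to 9 libraries, 11 had a highest or lowest library far from the others by Dixon's 95% value. That value assumes normally spread data. Where all other libraries of a group were at 0 CPM, any library above 0 was flagged. The count is therefore not set against chance. Retnla in GFP+ libraries of day 5 had such a library in both repair groups, delayed replicate 5 at 1409.9 CPM against at most 32.1 CPM in the others, and immediate replicate 5 at 33.0 CPM against 0 in the others. Nos2 was at 0 CPM in immediate macrophage replicate 4 of day 14 and 9.29 to 74.2 CPM in the other 7. It was at 5.41 CPM in immediate GFP+ replicate 2 of day 5, against at most 0.140 CPM in the others, and at 0.127 CPM in delayed GFP+ replicate 8 of day 14, against 0 in the others. Cd163 was at 6.36 CPM in immediate GFP+ replicate 1 of day 5 and at 4.42 CPM in immediate GFP+ replicate 8 of day 14. Lyve1 was at 2.53 CPM in delayed macrophage replicate 5 of day 5, the animal with the highest Retnla, and at 0.996 CPM in delayed GFP+ replicate 6 of day 14. Timd4 was at 0.305 CPM in immediate macrophage replicate 2 of day 5 and at 4.38 CPM in delayed macrophage replicate 8 of day 14. Several of these values are a few counts.

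The difference between females and males in macrophage Mrc1 changed between the days by -0.95 on the log2 scale (SE 0.24, adjusted p = 0.0398 in edgeR). No library was left out of that fit in turn.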

How the results depend on the processing

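The repair differences of the members stayed uncalled in macrophages and GFP+ libraries under every alternative run. Leaving out each replicate moved Mrc1 in macrophages from -0.083 to 0.19 at day 5 and Gpnmb from -0.13 to 0.27 at day 14. In the stump the number of members called ran from 0 to 1 when a replicate was left out. For the day in macrophages, 1 member was called within the delayed and 1 within the immediate animals, and Retnla was -0.56 within the delayed animals. For the day in GFP+ libraries, 0 members were called within the immediate animals and 2 with the replicate block, and Retnla was 3.68 with limma-voom, 2.26 with sex as a covariate, 6.06 with the replicate block (adjusted p = 0.0303) and from -2.15 to 1.23 with a replicate left out. For sex in macrophages, members called were 1 with DESeq2, 2 with library size scaling, 1 with limma-voom, 3 with day 5 only, 0 with day 14 only and 0 to 2 with a replicate left out, and Mrc1 was -0.22 with day 14 only. Pairs of members that correlated by Pearson's r numbered 5 in all libraries and 5 within day 5, 1 within day 14, 3 without the 2 animals farthest from the median and 1 with sex means subtracted, where r stayed near its value for the pairs that lost the call, and r of Nos2 with Gpnmb was -0.25 within day 5. The cause was not tested. Of 59 uncalled differences given as ranges, 24 changed sign in at least 1 alternative, in 115 of 1362 alternatives in all.

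Counts over all genes that moved by over 1.5 times were those for repair in macrophages of day 5 (3, from 2 with library size scaling to 17 with DESeq2), repair in GFP+ libraries of day 5 (0, and 14 with DESeq2) and day 14 (0, and 3), repair by day in macrophages (2, from 0 with library size scaling to 9 with DESeq2) and in GFP+ libraries (0, and 8 with DESeq2) and sex in macrophages (202, from 99 without a filter to 1216 with limma-voom). Library size scaling moved the higher and lower calls between days in macrophages from 1116 and 1162 to 1918 and 577, in GFP+ libraries from 795 and 1289 to 1703 and 716, between fractions from 3590 and 2997 to 4479 and 2086 at day 5 and from 3930 and 2923 to 5770 and 1760 at day 14, and by sex from 82 and 120 to 582 and 61. The replicate numbers did not pair the repair groups by the criterion that every pair correlates above 0.1 (lowest correlation of deviations -0.28 to -0.02), although in macrophages the median was 0.25 (highest 0.49) at day 5 and 0.26 (highest 0.50) at day 14, with 3 of 8 and 5 of 7 replicate numbers correlating best with their own, and with the replicate block 2178 in place of 3221 genes were called in the stump.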
